A study of Mus musculus with 12 samples.

Results

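The 10 genes described here encode transcription factors of the pancreatic islet that are used to define beta cell identity, Pdx1, Nkx6-1, Mafa, Neurod1, Nkx2-2, Isl1, Pax6, Foxa2, Rfx6 and Mnx1. They were taken by name from a table of 48709 genes, and all 10 were found and passed the filter on low counts. RNA was sequenced from islets of female NSG mice, an immunodeficient strain, heterozygous for RIP-DTR, a transgene in which the rat insulin promoter drives the receptor for diphtheria toxin, so that the toxin acts on cells that use that promoter. Diphtheria toxin had been given to 3 groups, whose labels read 1 DPA, 3 DPA and 5 DPA (taken to mean days post-ablation), and a group without toxin is called CTRL, with 3 libraries in each of the 4. The CTRL mice carried the transgene as well and were listed with no treatment, and the age of the mice is not given in the sources used here. The series asks how islets respond, at the RNA level, to the loss of some of their beta cells. Whether each library came from an animal of its own is not stated, and the p-values therefore describe the spread among libraries, which could be technical.

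Islet transcription factors act in a network. Foxa2 is a forkhead factor that opens chromatin early in endoderm, Pdx1 is a homeodomain factor needed for the pancreas to form and later for insulin gene transcription, and Neurod1, Nkx2-2, Rfx6, Isl1, Pax6 and Mnx1 act downstream of Neurog3 as endocrine cells differentiate. In the adult mouse Nkx6-1 and Mafa are largely restricted to beta cells among islet cells, whereas Isl1, Pax6, Neurod1, Rfx6, Foxa2 and Nkx2-2 are also used by other islet endocrine cells. Pdx1, Mafa and Neurod1 bind the insulin promoter directly.

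Of the 10, Foxa2 and Neurod1 rose at 1 DPA and Isl1, Pdx1 and Nkx6-1 fell, so their promoters are shown. The sequences are the 250 bases before the transcription start listed by RefSeq in GRCm38.p6, the assembly also known as mm10, and 9 of the 10 genes had an entry. Foxa2 had 3 starts listed, of which the most upstream was used. Set against the GENCODE M21 gene positions given below, the Nkx6-1 window lies wholly inside the gene, and the Pdx1 and Neurod1 windows run into theirs. The windows shown are chr2:148046970-148047219 on the minus strand for Foxa2, chr2:79456637-79456886 on the minus strand for Neurod1, chr13:116309689-116309938 on the minus strand for Isl1, chr5:147269847-147270096 on the plus strand for Pdx1 and chr5:101664712-101664961 on the minus strand for Nkx6-1. Each is written 5' to 3' toward the gene, and capitals mark matches, on either strand, to 6 motifs: the E-box CANNTG bound by basic helix-loop-helix factors such as Neurod1, the homeodomain core TAAT, the forkhead core TGTTTNC, the partial cAMP response element TGACG, the AP-1 site TGANTCA and the TATA box TATANAA.
Foxa2: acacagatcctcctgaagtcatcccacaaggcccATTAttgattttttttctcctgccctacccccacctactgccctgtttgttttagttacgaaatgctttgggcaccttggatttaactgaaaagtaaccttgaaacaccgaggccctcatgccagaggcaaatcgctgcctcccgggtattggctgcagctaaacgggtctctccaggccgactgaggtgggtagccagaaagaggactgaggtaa
Neurod1: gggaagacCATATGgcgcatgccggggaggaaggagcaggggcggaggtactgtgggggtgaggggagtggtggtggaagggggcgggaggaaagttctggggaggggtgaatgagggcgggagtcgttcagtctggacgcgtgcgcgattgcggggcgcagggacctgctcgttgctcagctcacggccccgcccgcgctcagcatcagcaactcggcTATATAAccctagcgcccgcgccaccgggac
Isl1: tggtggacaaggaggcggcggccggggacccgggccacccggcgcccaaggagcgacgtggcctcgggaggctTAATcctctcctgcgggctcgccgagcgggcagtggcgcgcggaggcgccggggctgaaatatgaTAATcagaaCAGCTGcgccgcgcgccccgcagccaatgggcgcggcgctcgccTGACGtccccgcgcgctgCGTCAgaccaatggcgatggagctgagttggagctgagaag
Pdx1: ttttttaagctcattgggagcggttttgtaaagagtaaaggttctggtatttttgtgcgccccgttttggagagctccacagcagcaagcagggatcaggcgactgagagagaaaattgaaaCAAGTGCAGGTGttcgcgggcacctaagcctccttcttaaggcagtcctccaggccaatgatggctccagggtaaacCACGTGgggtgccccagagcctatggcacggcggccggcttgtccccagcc
Nkx6-1: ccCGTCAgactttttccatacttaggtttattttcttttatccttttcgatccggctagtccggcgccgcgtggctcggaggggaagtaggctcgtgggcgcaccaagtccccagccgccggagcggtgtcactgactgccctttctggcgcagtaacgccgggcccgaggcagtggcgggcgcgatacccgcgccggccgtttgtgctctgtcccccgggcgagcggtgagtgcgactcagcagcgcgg

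The windows had little in common. Neurod1 held a TATA box 31 bases before its start, a motif found in 10.4% of 32851 mouse promoters of the same length, and 1 E-box (66.2% of promoters hold at least 1). The Foxa2 window, from 1 of its 3 listed starts, held only a TAAT match (54.9% of promoters). Pdx1 held 3 E-boxes, at 128, 122 and 51 bases before its start, the first 2 of them adjoining. Isl1 held 2 TGACG matches (17.8% of promoters), 2 TAAT matches and 1 E-box, and Nkx6-1 held 1 TGACG match, 248 bases before its start. The forkhead core, found in 17.8% of promoters, and the AP-1 site, found in 6.75%, matched none of these 5 windows; the AP-1 letters matched in 1 of the 9 members, Rfx6. A match to these letters is a description of the sequence and not a binding site.

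The libraries held 29867083 to 50012558 counts, and every member had between 664 and 39003 counts in every library. Ins2 averaged 129105 ± 7051 CPM (counts divided by the library size in units of 1e+06 counts, scaled by edgeR's TMM factors; SD, n = 3) in CTRL, and all 9 beta cell markers were measured in every group. The mean log2 CPM of those 9 markers, which include Ins1, Ins2 and Slc2a2, was 10.9 to 11.1 in CTRL, 10.1 to 10.5 at 1 DPA and 10.5 to 10.8 at both 3 and 5 DPA. Other cell types were present, and the mean of 14 macrophage markers ranged over 2.75 to 4.79 log2 CPM in CTRL, 2.45 to 2.79 at 1 DPA, 3.66 to 4.41 at 3 DPA and 5.00 to 5.49 at 5 DPA. The mean of 14 stromal markers ranged over 4.86 to 6.66 in CTRL, 5.10 to 5.32 at 1 DPA, 6.0 to 6.42 at 3 DPA and 6.66 to 7.21 at 5 DPA; no marker of either list was at 0 in all libraries. The mean of 17 acinar cell markers ranged over 9.29 to 11.9 log2 CPM in CTRL and 8.26 to 11.6 at 1 DPA. It ranged over 8.06 to 9.62 at 3 DPA and 8.87 to 10.8 at 5 DPA. CTRL replicate 3 stood apart from the other CTRL libraries, with the lowest macrophage, stromal, acinar, duct and endothelial values of its group. It also had the highest beta, alpha and delta/PP marker values and the highest CPM of all 10 members in that group. Over all 17294 genes tested, 43.2% were highest in that CTRL library. Without it the median log2 fold change of the members was 0.05 at 1 DPA, -0.01 at 3 DPA and -0.17 at 5 DPA against the other 2 CTRL libraries, where with it the medians were -0.12, -0.15 and -0.31. The medians over all genes were -0.01, 0.01 and 0.03 without it.

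Levels per gene length, in TPM (transcripts per 1e+06 transcripts) as the authors deposited them, put the 10 genes in a wide order. In CTRL Mafa was highest at 1278 ± 273 TPM (SD, n = 3), followed by Nkx6-1 at 558 ± 57.8, Pdx1 at 227 ± 39.8, Nkx2-2 at 140.3 ± 31.2, Neurod1 at 135 ± 25.0, Foxa2 at 90.0 ± 7.98, Isl1 at 65.0 ± 14.9, Pax6 at 54.5 ± 12.8, Rfx6 at 51.5 ± 16.8 and Mnx1 at 28.9 ± 4.39. Nkx2-2 and Neurod1 overlapped between libraries, as did Isl1 with Pax6 and Pax6 with Rfx6, and the other neighbours in that order did not. The place of Mafa depends on the gene model: the deposited TPM imply a Mafa length 0.500 times that of Pdx1, whereas the GENCODE M21 exons of Mafa (chr15:75745490-75748228, minus strand, 1 exon) are 1.27 times as long as those of Pdx1, a difference of 2.54 times. For 7 other members the lengths relative to Pdx1 were equal in both, and for Rfx6 their ratio was 1.004. Mafa's count rate alone, 634 ± 105 CPM in CTRL, was below that of Nkx6-1 at 810.2 ± 79.0 CPM.

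At 1 DPA the order changed in the middle. Neurod1 stood at 248 ± 25.1 TPM, above Pdx1 at 207 ± 8.18 TPM, with no overlap between their libraries. Foxa2 stood at 168 ± 19.5 TPM, level with Nkx2-2 at 172 ± 5.05 TPM, whose libraries it overlapped. By 3 and 5 DPA the first 3 were again Mafa, Nkx6-1 and Pdx1, and Foxa2 was again below both Nkx2-2 and Neurod1 without overlap.

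**Figure D1:**
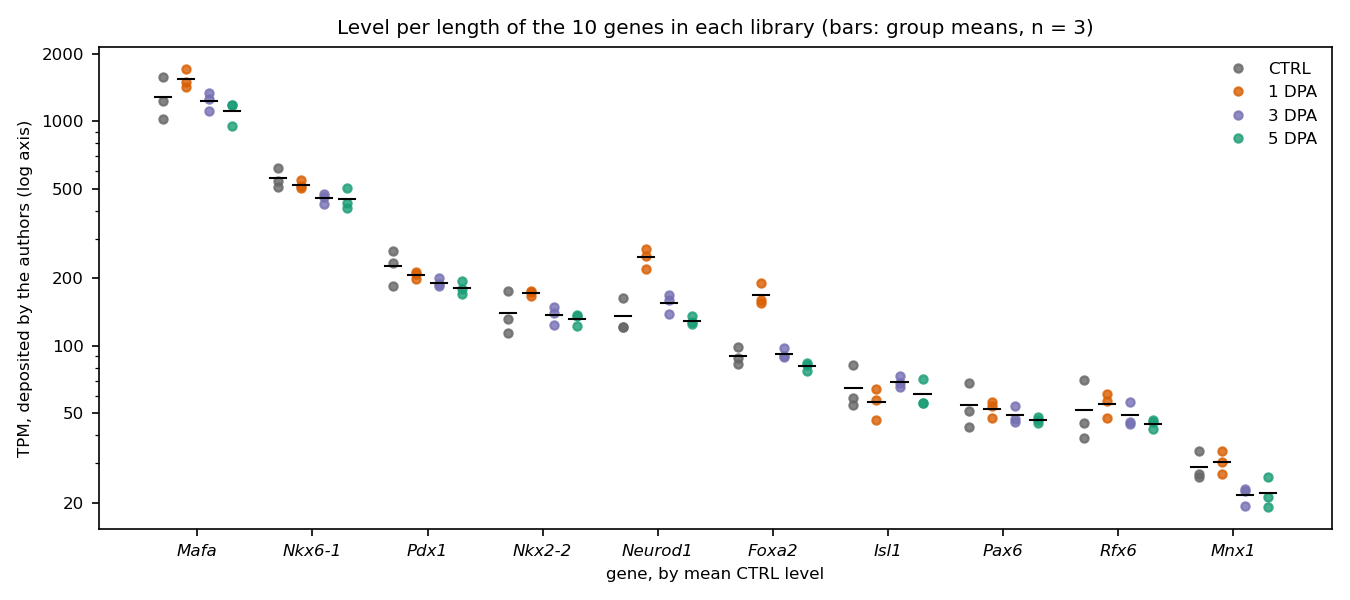
Deposited TPM (log axis) of each gene in each of the 12 libraries, with genes ordered by mean CTRL level; points are libraries, coloured by group, and short bars are group means (n = 3). Neurod1 and Foxa2 at 1 DPA lie above their own libraries of every other group, and Mafa is highest in all groups under the gene model used for the deposited values.

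At 1 DPA Foxa2 rose by 60.2% and Neurod1 by 57.6%, while Isl1 fell by 26.1%, Pdx1 fell by 21.2% and Nkx6-1 fell by 19.5%, and the other 5 genes were not called. So 5 of 10 members were called by edgeR's quasi-likelihood test at a Benjamini-Hochberg adjusted p under 0.05, beside 51.6% of all genes tested. Of the members, 2 were higher, beside 29.2% of all genes, and 3 were lower, beside 22.4%. The median log2 fold change was -0.12 over the members and -0.05 over all genes, and the median size of change was 0.29 over the members and 0.44 over all genes. In these bulk libraries fewer cells of a type and less RNA per cell cannot be told apart.

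Foxa2 (ENSMUSG00000037025, mm10 chr2:148042877-148046969, minus strand, 4 exon blocks) had the call of smallest p among the 10. It had 169.8, 146 and 157 CPM in the 1 DPA libraries, against 94.8, 97.1 and 104 CPM in the CTRL libraries, and the groups did not overlap. The log2 fold change was 0.68 ± 0.07 (SE; edgeR adjusted p = 1.27e-05), a level 1.6 times that of CTRL. Neurod1 (ENSMUSG00000034701, chr2:79452521-79456751, minus strand, 2 exon blocks), a basic helix-loop-helix factor needed for endocrine cell survival and insulin transcription, had 271, 295 and 239 CPM at 1 DPA, against 149, 163 and 199 CPM in CTRL. Here too every 1 DPA library was above every CTRL library, at a log2 fold change of 0.66 ± 0.12 (edgeR adjusted p = 9.91e-04), or 1.58 times the CTRL level. Both genes stayed called in each of the 23 other settings tried, with log2 fold changes from 0.55 to 0.89 for Foxa2 and from 0.38 to 0.88 for Neurod1. Over all genes, 31.1% had every 1 DPA library above every CTRL library.

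Isl1 (ENSMUSG00000042258, chr13:116298281-116309689, minus strand, 7 exon blocks), a LIM homeodomain factor of all islet endocrine cells, was the member that fell the most. It had 83.1, 90.8 and 88.4 CPM at 1 DPA, against 104, 107 and 144 CPM in CTRL, without overlap between the groups, as for 23.5% of all genes below CTRL. The log2 fold change was -0.44 ± 0.12 (edgeR adjusted p = 0.00904). It stayed called in 22 of the 23 other settings, and the exception was the deposited TPM. Without CTRL replicate 3 the fall was smaller, at -0.27 (edgeR adjusted p = 0.0215). The mean log2 CPM of 11 alpha cell markers was also lower, at 6.47 to 6.69 at 1 DPA against 6.71 to 6.96 in CTRL, and their part was not tested.

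Pdx1 (ENSMUSG00000029644, chr5:147269959-147275848, plus strand, 2 exon blocks) had 202, 171 and 161 CPM at 1 DPA, against 227, 198 and 253 CPM in CTRL. The groups overlapped in 1 library of each, and the log2 fold change was -0.34 ± 0.11 (edgeR adjusted p = 0.0235). Nkx6-1 (ENSMUSG00000035187, chr5:101658139-101664996, minus strand, 3 exon blocks), a homeodomain repressor that keeps beta cells from taking up other endocrine fates, had 727, 631 and 599 CPM at 1 DPA, against 719.8, 846 and 865 CPM in CTRL. Its groups overlapped as well, and its log2 fold change was -0.31 ± 0.12 (edgeR adjusted p = 0.0473). Both calls depended on single libraries. That of Pdx1 was lost when CTRL replicate 3 was left out (log2 fold change -0.25, edgeR adjusted p = 0.0812), and likewise for 1 DPA replicate 2 (0.0771) and 1 DPA replicate 3 (0.0505). That of Nkx6-1 held in 12 of the 23 other settings. Leaving out replicate 2 or 3 of CTRL, of 1 DPA or of 3 DPA ended it, and so did leaving out 5 DPA replicate 3, with edgeR adjusted p-values of 0.0557 to 0.125.

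The 3 falls were not called on the deposited TPM, a scale that moved all 5 genes upward by similar amounts. On it, Isl1 had 46.8, 57.5 and 64.3 TPM at 1 DPA, against 58.3, 54.6 and 82.1 TPM in CTRL, and Pdx1 had 208, 198 and 214 TPM at 1 DPA, against 233, 185 and 264 TPM in CTRL. The groups of both genes overlap on that scale. With limma on log2(TPM + 1), an alternative chosen after seeing the data, Foxa2 (0.89) and Neurod1 (0.88) were called and Isl1 (-0.20, adjusted p = 0.354), Pdx1 (-0.12, adjusted p = 0.436) and Nkx6-1 (-0.09, adjusted p = 0.504) were not. That scale moved the median log2 fold change over all genes at 1 DPA to 0.13, against -0.05 with TMM, and called 34.3% of all genes higher and 5.2% lower. Relative to that median the TPM values were 0.77 for Foxa2, 0.75 for Neurod1, -0.32 for Isl1, -0.25 for Pdx1 and -0.22 for Nkx6-1. The macrophage and stromal markers lay in the lower part of the CTRL range or below it at 1 DPA, and with either score as a covariate the 5 calls held and Pax6 and Rfx6 were called lower as well. The part of those cells was not tested. With library sizes that leave out the 50 most abundant genes the median moved the other way, to -0.18, with 24.4% of all genes called higher and 31.9% lower, and 6 members were called, Pax6 being added to the 5.

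A share within the 10 genes does not depend on how a library is scaled. Neurod1 made up 8.10% ± 0.506 of the summed member TPM at 1 DPA, against 5.15% ± 0.290 in CTRL (SD, n = 3 each), and Foxa2 made up 5.52% ± 0.757 at 1 DPA, against 3.46% ± 0.293 in CTRL. Nkx6-1 fell below its CTRL range, with 17.1% ± 1.32 at 1 DPA against 21.5% ± 2.49 in CTRL, and so did Pdx1, with 6.79% ± 0.538 against 8.66% ± 0.566, and Isl1, with 1.84% ± 0.273 against 2.46% ± 0.140. For each of these 5 genes, picked because they were called in these data, the 1 DPA libraries and the CTRL libraries did not overlap in share. Pax6, which was not called, did not overlap either, at 1.62% to 1.86% at 1 DPA against 1.95% to 2.18% in CTRL. The shares have a fixed sum, so a rise of one member lowers the shares of others. Shares of this kind were not computed for other genes. These shares carry the gene model used for Mafa, which held 50.5% ± 2.98 of the sum at 1 DPA and 48.4% ± 2.15 in CTRL.

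Among the 5 members not called at 1 DPA, Pax6 (ENSMUSG00000027168, chr2:105668900-105697364, plus strand), a paired homeodomain factor of all islet endocrine cells, came nearest. Pax6 had 249.99, 252 and 228 CPM at 1 DPA, against 270.5, 252 and 356 CPM in CTRL, so that the 1 DPA libraries lay below the CTRL libraries by a small margin (log2 fold change -0.27, 95% interval -0.53 to 0.00, edgeR adjusted p = 0.0865). Mafa (ENSMUSG00000047591), the basic leucine zipper factor of mature beta cells and an activator of the insulin genes, had 724, 739 and 536 CPM at 1 DPA, against 602, 549.5 and 751 CPM in CTRL. Its interval ran from -0.27 to 0.41 on the log2 scale, and the groups overlapped. Nkx2-2 (ENSMUSG00000027434, chr2:147177546-147194243, minus strand), a homeodomain factor that holds beta cell identity in the adult, had a log2 fold change of 0.08 with an interval of -0.20 to 0.37. For Mafa and Nkx2-2 the sign of the 1 DPA difference turned with library sizes that leave out the 50 most abundant genes, with the macrophage or stromal score as a covariate, and without CTRL replicate 1 or 2 (Mafa also without 1 DPA replicate 2). Neither was called under any setting. Rfx6 (ENSMUSG00000019900, chr10:51677756-51730432, plus strand), a winged-helix factor needed for islet formation, differed by -0.12 (-0.50 to 0.27), or by 0.14 without CTRL replicate 3, and Mnx1 (ENSMUSG00000001566, chr5:29473034-29478470, minus strand), a homeodomain factor needed for beta cell differentiation, by -0.13 (-0.51 to 0.25).

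**Figure D2:**
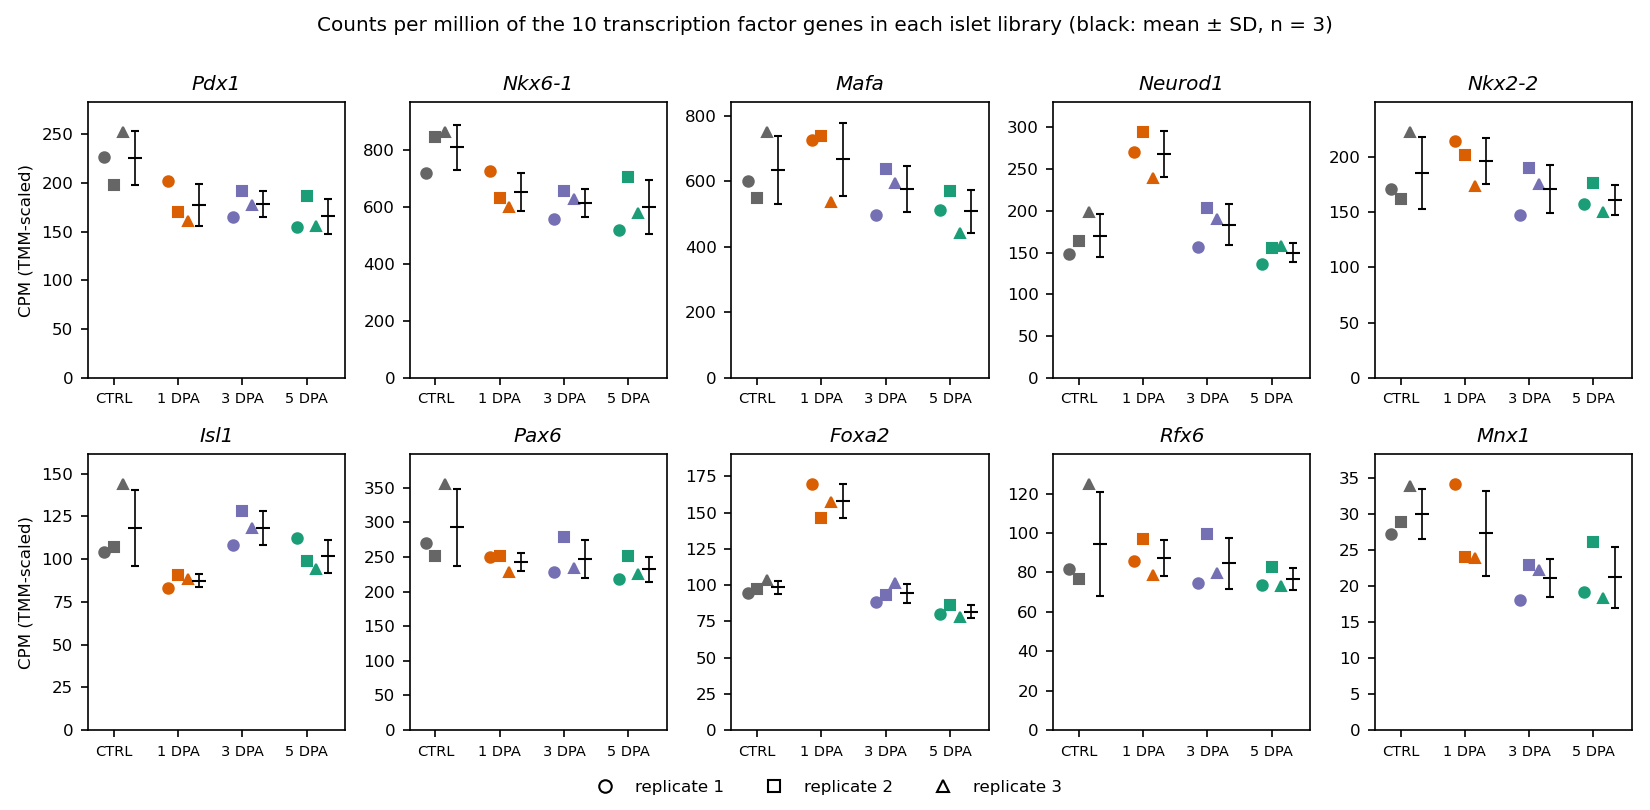
TMM-scaled CPM of each gene in each library, by group (circles, squares and triangles are replicates 1, 2 and 3; black bars are mean ± SD, n = 3; each axis starts at 0). All 3 libraries of Foxa2 and of Neurod1 stand above the CTRL libraries at 1 DPA, Isl1 stands below them at 1 DPA, and Pdx1 stands below its CTRL libraries at 3 and 5 DPA.

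At 3 DPA no member passed edgeR's test, beside 12.6% of all genes called. Pdx1, Nkx6-1 and Mnx1 passed at an unadjusted p under 0.05, which 25% of all genes did, and in these 3 members every 3 DPA library was lower than every CTRL library, beside 11.1% of all genes. DESeq2 called the same 3, limma-voom called none, and limma on the deposited TPM called none. Pdx1 had 165, 192 and 177 CPM at 3 DPA, against 227, 198 and 253 CPM in CTRL (log2 fold change -0.34 ± 0.11, edgeR adjusted p = 0.0729). Nkx6-1 had 558, 656 and 630.3 CPM at 3 DPA, against 719.8, 846 and 865 CPM in CTRL (-0.40 ± 0.12, edgeR adjusted p = 0.0510). Mnx1, the least abundant member, had 18.0, 23.0 and 22.2 CPM at 3 DPA, against 27.2, 28.9 and 33.8 CPM in CTRL (-0.51 ± 0.17, edgeR adjusted p = 0.0829). Without CTRL replicate 3 only Nkx6-1 passed at an unadjusted p under 0.05, and the edgeR adjusted p-values were 0.200 for Pdx1, 0.125 for Nkx6-1 and 0.205 for Mnx1, at log2 fold changes of -0.25, -0.35 and -0.41. The 2 genes that had risen were close to CTRL again, Foxa2 at a log2 fold change of -0.06 (95% interval -0.22 to 0.10) and Neurod1 at 0.11 (-0.16 to 0.38), as was Isl1 at 0.00 (-0.26 to 0.25). Without CTRL replicate 3 these values were -0.02 for Foxa2, 0.23 for Neurod1 and 0.16 for Isl1, none of them called.

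At 5 DPA Pdx1, Nkx6-1 and Foxa2 fell, and all 10 members had a log2 fold change below 0, although those of Neurod1, Nkx2-2, Isl1 and Rfx6 were above 0, uncalled, with the macrophage or stromal score as a covariate. The 3 calls stand beside 8.54% of all genes called and 2.67% called lower. The median over the members was -0.31, and over all genes it was 0.01. Without CTRL replicate 3 all 10 were still below 0, at a median of -0.17, and Neurod1, Nkx2-2, Isl1 and Rfx6 lay between -0.06 and -0.05. Pdx1 had 155, 187 and 156 CPM at 5 DPA, against 227, 198 and 253 CPM in CTRL (log2 fold change -0.45 ± 0.11, edgeR adjusted p = 0.0327). Nkx6-1 had 519, 705 and 579 CPM at 5 DPA, against 719.8, 846 and 865 CPM in CTRL (-0.43 ± 0.12, edgeR adjusted p = 0.0481). Foxa2, which had been above CTRL at 1 DPA, had 80.0, 86.6 and 78.3 CPM at 5 DPA, against 94.8, 97.1 and 104 CPM in CTRL (-0.27 ± 0.07, edgeR adjusted p = 0.0420). No library of these 3 genes overlapped between the groups, and Pax6 and Mnx1 were likewise below CTRL in all 5 DPA libraries without being called (edgeR adjusted p = 0.114 and 0.0992); over all genes 12.2% lay below CTRL without overlap.

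These falls at 5 DPA were small and the calls were not stable. Of the 23 other settings Pdx1 was called in 12, Foxa2 in 9 and Nkx6-1 in 7, while the direction was kept in all of them. None of the 10 was called once CTRL replicate 3, or replicate 1 or 3 of 5 DPA, was left out. The count was 1 when replicate 2 of CTRL or of 1 DPA, or replicate 2 or 3 of 3 DPA, was left out. Macrophage and stromal markers were above the CTRL range, or at its upper end, in the 5 DPA libraries (values above), and with either score as a covariate no member was called, at log2 fold changes of -0.26 and -0.27 for Pdx1. The part of those cells in the falls was not tested. Mafa had 511, 571 and 441 CPM at 5 DPA, against 602, 549.5 and 751 CPM in CTRL, a log2 difference of -0.32 with an interval of -0.66 to 0.02 (edgeR adjusted p = 0.232). The comparisons with CTRL all use the same 3 CTRL libraries.

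**Figure D3:**
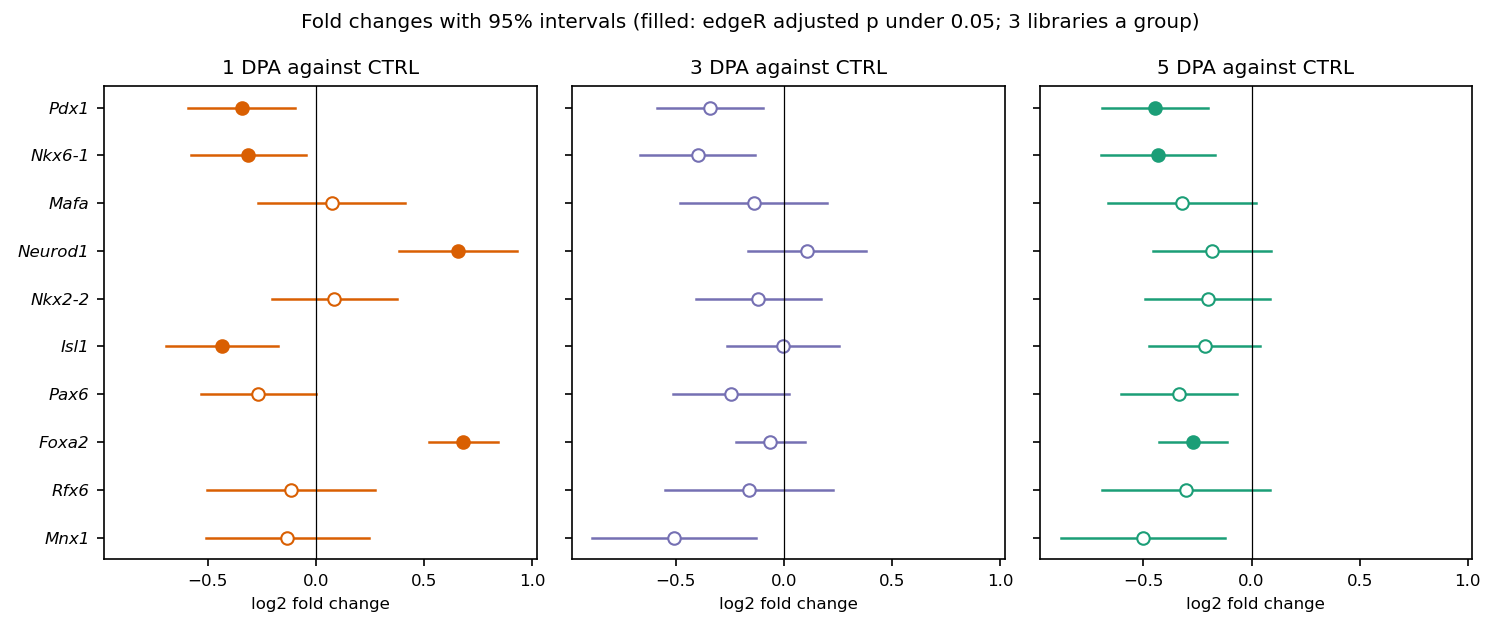
Log2 fold change of each gene at 1, 3 and 5 DPA against CTRL, with 95% intervals from edgeR (3 libraries a group; filled points have an adjusted p under 0.05). Foxa2 and Neurod1 lie to the right of 0 at 1 DPA and all 10 genes lie to the left of 0 at 5 DPA, with 3 filled.

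The times after toxin were also compared with each other. These differences use no CTRL mean, but the CTRL libraries entered the same fit through the filter, the scaling and the shared estimate of spread. Between 3 and 1 DPA, 3 members were called, beside 45.1% of all genes. Of these 2 were lower and 1 higher, beside 24.7% lower and 20.4% higher. Foxa2 fell to 94.3 ± 6.57 CPM at 3 DPA, against 158 ± 11.7 CPM at 1 DPA (log2 fold change -0.74 ± 0.07, edgeR adjusted p = 1.45e-05). Neurod1 fell to 184 ± 24.3 CPM at 3 DPA, against 268 ± 27.8 CPM at 1 DPA (-0.55 ± 0.12, edgeR adjusted p = 0.00412). Isl1 moved in the opposite direction and rose to 118 ± 9.99 CPM at 3 DPA, against 87.5 ± 3.91 CPM at 1 DPA (0.43 ± 0.12, edgeR adjusted p = 0.0114). No library overlapped between the 2 times for these 3 genes, beside 29.3% of all genes below and 30% above without overlap. The alpha cell markers ranged over 7.03 to 7.33 log2 CPM at 3 DPA and 6.47 to 6.69 at 1 DPA, and the mean of 8 delta and PP cell markers over 7.47 to 7.75 at 3 DPA and 6.83 to 7.23 at 1 DPA, higher at 3 DPA as Isl1 was. Their part was not tested. The 1 DPA libraries also had lower macrophage and stromal markers than every 3 and 5 DPA library, and with the macrophage score as a covariate Neurod1 was not called in either comparison with 1 DPA (edgeR adjusted p = 0.248 for 3 DPA and 0.303 for 5 DPA), nor with the stromal score (0.0897 and 0.0821). On the deposited TPM the call of Isl1 ended (limma adjusted p = 0.151). Between 5 and 3 DPA edgeR called none, beside 3.16% of all genes; Neurod1 and Foxa2 passed at an unadjusted p under 0.05, as did 17.5% of all genes, and DESeq2 and limma-voom called none, and limma on the deposited TPM called none.

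Between 5 and 1 DPA Foxa2 (-0.95 ± 0.07, edgeR adjusted p = 1.72e-06), Neurod1 (-0.84 ± 0.13, edgeR adjusted p = 1.74e-04) and Mafa (-0.39 ± 0.16, edgeR adjusted p = 0.0498) were lower at 5 DPA, beside 56.1% of all genes called and 29.8% called lower. The libraries of Foxa2 and Neurod1 did not overlap, as for 33.8% of all genes below 1 DPA. Foxa2 was at 81.6 ± 4.36 CPM at 5 DPA, against 158 ± 11.7 CPM at 1 DPA, and was called in all 23 other settings. Mafa was at 508 ± 65.0 CPM at 5 DPA, against 666 ± 113 CPM at 1 DPA, with overlapping libraries, and was called in 6 of 23. Its call ended in 9 of the 12 fits that left out a library, the exceptions being replicate 3 of CTRL, replicate 3 of 1 DPA and replicate 2 of 5 DPA. Over the 4 groups together 6 members differed by edgeR's F-test, beside 57.4% of all genes: Foxa2 (adjusted p = 3.15e-06), Neurod1 (5.94e-04), Pdx1 (0.0193), Isl1 (0.0209), Nkx6-1 (0.0265) and Mnx1 (0.0465). Without CTRL replicate 3 that count was 3, Neurod1, Isl1 and Foxa2.

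**Figure D4:**
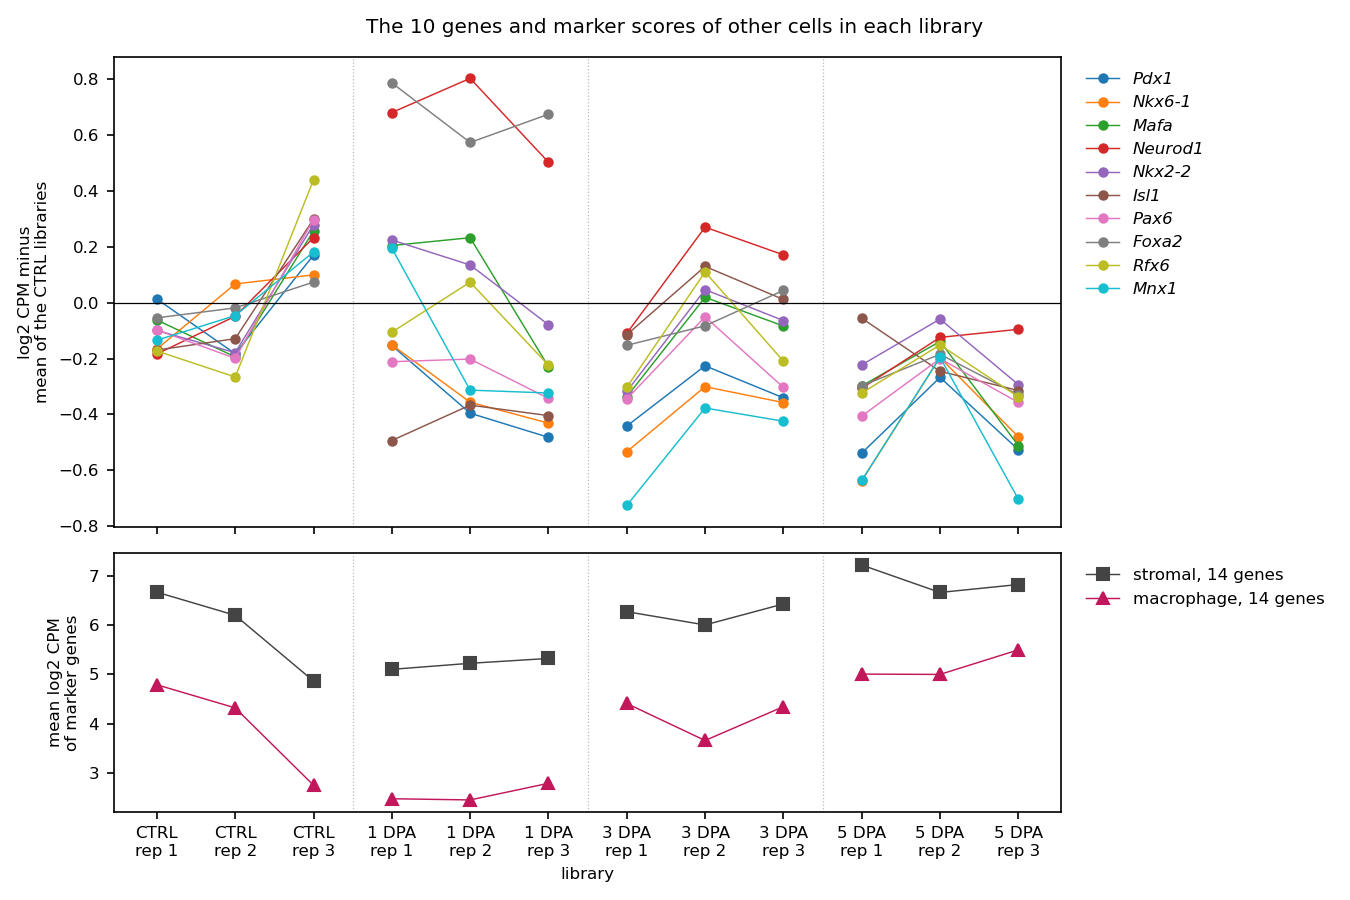
Upper panel, log2 CPM of each gene in each library minus its mean over the CTRL libraries; lower panel, mean log2 CPM of 14 stromal and 14 macrophage markers in the same libraries (lines join libraries of a group only to guide the eye). All 10 genes are above 0 in CTRL replicate 3, where both marker means are lowest among CTRL libraries, and all 10 are below 0 in the 3 libraries at 5 DPA.

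Within groups many members were highest or lowest in the same library. CTRL replicate 3 was the highest CTRL library for 10 of 10 members, and 3 DPA replicate 1 was the lowest 3 DPA library for 10 of 10, against 33.9% of all genes. At 1 DPA replicate 3 was the lowest for 8 of 10 (33.8% of all genes), while the highest was replicate 1 for 5 and replicate 2 for 5. At 5 DPA replicate 2 was the highest for 8 of 10 (28.9% of all genes). The median deviation of the members from their CTRL means was 0.24 on the log2 scale in CTRL replicate 3, against -0.12 and -0.15 in the other CTRL libraries. Measured by the root mean square difference of centred log2 CPM over the 12 libraries, the members most alike were Mafa and Nkx2-2 (0.078), Pax6 and Rfx6 (0.092), Pdx1 and Pax6 (0.094) and Pdx1 and Nkx6-1 (0.106), and the least alike were Isl1 and Foxa2 (0.515). Those differences are descriptions over libraries that share their groups.

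Among 8404 other genes whose mean log2 CPM was 4 or more, those closest in pattern to Foxa2 were Kdf1 (0.056) and Fam83h (0.066), and to Neurod1 Pik3c2a (0.098) and Micu3 (0.105). The closest to Pdx1 were Scnn1b (0.070) and Idh2 (0.074), and to Nkx6-1 Tmem215 (0.066) and again Scnn1b (0.070). Mafa was closest to Vegfa (0.094) and Cog1 (0.106), Nkx2-2 to Phf21b (0.069) and Rnf123 (0.075), and Isl1 to Slc29a4 (0.074) and Pomt2 (0.086). Pax6 was closest to Slc25a23 (0.062) and Elmo3 (0.067), Rfx6 to Dynlt1c (0.084) and Gpsm1 (0.095), and Mnx1, the least closely matched, to Fhdc1 (0.135) and Adora1 (0.146).

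Several members share their locus with another gene, and whether the authors' counting used strand is not given in the sources used here, so reads of overlapping genes cannot be told apart with certainty. The antisense gene 2210019I11Rik (ENSMUSG00000092570, named Plut in GENCODE M21), which overlaps the 5' part of Pdx1 on the other strand but shares no exon base with it, fell at 1 DPA to 14.9 ± 3.48 CPM, against 24.9 ± 2.34 CPM in CTRL (log2 fold change -0.74 ± 0.18, edgeR adjusted p = 0.00561). At 3 and 5 DPA it was below CTRL in every library without being called (edgeR adjusted p = 0.152 and 0.146). Cerkl, which shares 201 exon bases with Neurod1 on the same strand, rose at 1 DPA to 37.9 ± 1.55 CPM, against 30.8 ± 2.74 CPM in CTRL (0.30 ± 0.09, edgeR adjusted p = 0.0189), a far lower level than that of Neurod1. Gm26755, opposite Neurod1, shares 154 exon bases with it and had 0 to 3 counts in every library. Nkx2-2os, opposite Nkx2-2, shares 278 exon bases with it and had 0 to 6 counts. 6430503K07Rik, opposite Nkx2-2, and Pax6os1, opposite Pax6, share no exon base with those members and were not called against CTRL at any time.

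Other transcription factors of endocrine development, a list of 16 of which 15 were tested, included 5 that rose and 2 that fell at 1 DPA, beside 29.2% and 22.4% of all genes. The 4 of smallest p all rose: Insm1, a zinc finger factor of endocrine differentiation, to 931 ± 55.3 CPM at 1 DPA, against 465 ± 17.5 CPM in CTRL (log2 fold change 1.00, edgeR adjusted p = 9.03e-07); St18 (1.11) and Myt1 (0.82), zinc finger factors of one family; and Rfx3 (0.71), a winged-helix factor. At 3 DPA 1 of the 15 was called, Insm1 (0.32, edgeR adjusted p = 0.0126), beside 12.6% of all genes. At 5 DPA 1 was called, Tshz1, which fell (-0.33, edgeR adjusted p = 0.0138), beside 8.54% of all genes. The list's median was -0.15 at 1 DPA and that of all genes -0.05.

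Factors of other islet cell types, 9 tested of 10, were not called at 1 or 5 DPA by edgeR. Of all genes 51.6% and 8.54% were called at those times. At 3 DPA Pou3f4, an alpha cell factor, rose (0.97, edgeR adjusted p = 0.0359) and Peg3 fell (-0.52, edgeR adjusted p = 0.0286), beside 12.6% of all genes called. At an unadjusted p under 0.05, 1, 6 and 2 of the 9 passed at 1, 3 and 5 DPA, beside 25% of all genes at 3 DPA. The medians of this list were -0.22, 0.42 and 0.19 at 1, 3 and 5 DPA, against -0.05, -0.01 and 0.01 over all genes. Factors of the mature beta cell and of the HNF family, 19 tested of 20, included 7 that rose and 1 that fell at 1 DPA, beside the same 29.2% and 22.4%. Nr1d1, a nuclear receptor of the circadian clock, rose at all 3 times, by 5.03, 4.57 and 2.87 on the log2 scale at 1, 3 and 5 DPA. Nr3c1, the glucocorticoid receptor, rose at 1 DPA (0.45), and Foxo1 fell at 5 DPA (-0.23).

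Of 29 cofactors and chromatin proteins, 13 rose and 7 fell at 1 DPA, beside 29.2% and 22.4% of all genes, with Rnf40 (1.30), an E3 ligase for histone H2B, the histone demethylase Kdm6b (1.39), the acetyltransferase Ep300 (0.96) and the corepressor Tle3 (0.80) leading by p. At 3 DPA 1 was called, Kdm6b (1.18), beside 12.6% of all genes. At 5 DPA 1 was called, the DNA methyltransferase Dnmt3a (-0.34), beside 8.54% of all genes. The medians over the 29 were 0.08, -0.08 and -0.15 at 1, 3 and 5 DPA, against -0.05, -0.01 and 0.01 over all genes. Of 28 beta cell genes known as targets of these factors, 1 rose and 13 fell at 1 DPA, 9 fell at 3 DPA and 9 fell at 5 DPA, beside 22.4%, 2.37% and 2.67% of all genes called lower, with list medians of -0.37, -0.31 and -0.25, against -0.05, -0.01 and 0.01 over all genes. Glp1r, the receptor of the incretin GLP-1, fell at all 3 times (-0.78, -0.52 and -0.69), as did Slc2a2, the glucose transporter (-1.03, -0.49 and -0.42), and Trpm5, a cation channel (-0.74, -0.42 and -0.72). Ucn3, a peptide of mature beta cells, fell at 1 and 5 DPA (-0.74 and -0.60), and Prlr, the prolactin receptor, at 3 DPA (-0.90). Falls of beta cell genes in islets that have lost beta cells carry the same limit as those of Pdx1 and Nkx6-1, that fewer beta cells and less RNA per beta cell cannot be told apart.

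**Figure D5:**
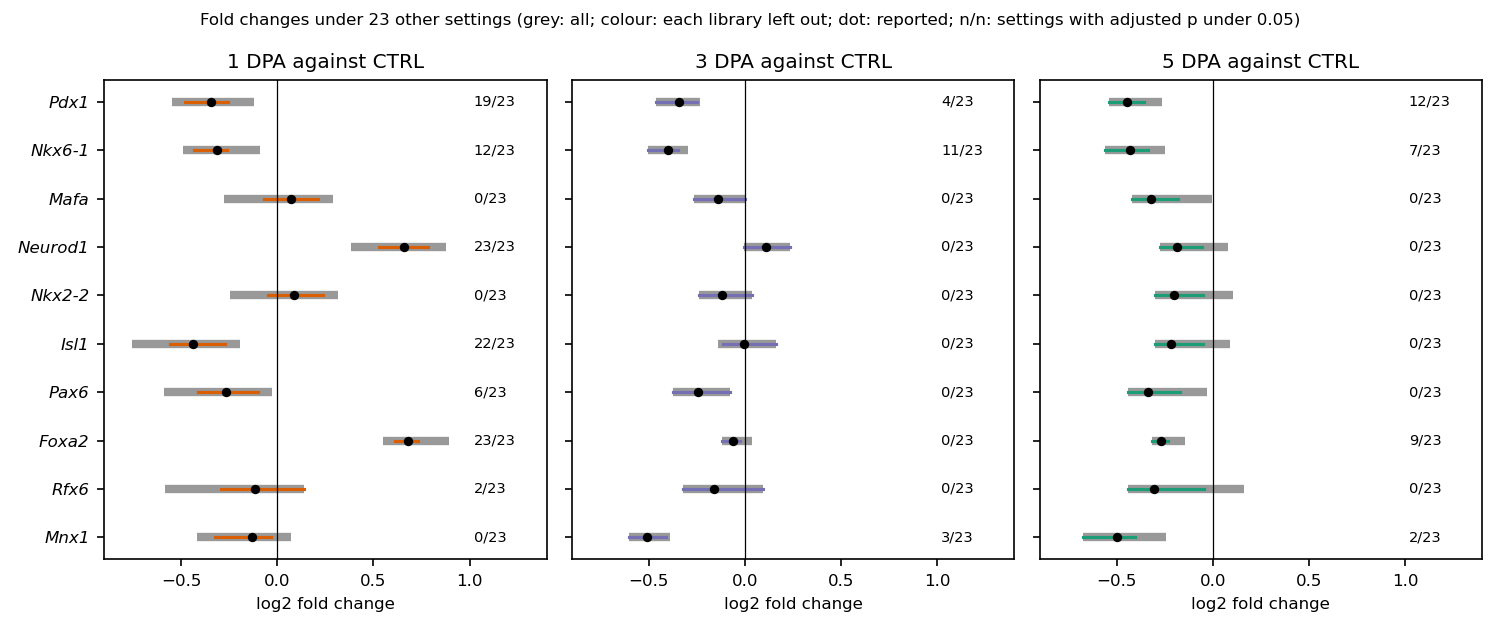
Range of the log2 fold change of each gene against CTRL over 23 other settings (grey) and over the 12 fits that each left out 1 library (colour); dots are the reported values, and the number at the right is how many of the 23 settings gave an adjusted p under 0.05. Neurod1 and Foxa2 at 1 DPA were called in all 23, Isl1 at 1 DPA in 22, and no gene at 3 or 5 DPA in more than 12.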

How the data were processed

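Islet RNA was extracted with RNeasy and made into stranded mRNA libraries, per the labels' protocols. The authors deposited whole-number read counts and TPM per gene for each of the 12 libraries, per the file headers. Reads were set against mm10, per the submitters' processing notes. Which aligner, counter, annotation and strand setting were used is not given in the sources available. Columns were tied to libraries by name, and 24 other columns of per-sample values were not used.

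A gene entered the tests if it passed filterByExpr of edgeR 4.0.16 (R 4.3.3) with a minimum count of 10, which left 17294 of 48709. The quasi-likelihood fit was robust, used TMM factors and gave each group a mean. The Benjamini-Hochberg adjustment ran over all genes tested, and a gene was called at an adjusted p under 0.05. The F statistic gave the standard errors and its degrees of freedom the 95% intervals. Log2 CPM had a prior count of 2. Simulated counts with known changes were used to check the fit. Every pair of replicates differed by more than sampling noise.

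Members and gene lists were chosen with earlier results of these data known. Named were all 10 members; the called genes of smallest p in each other list, up to 4 per comparison with CTRL, with Ins1, Ins2 and Slc2a2 always allowed; the 2 genes closest to each member in pattern, leaving out predicted and clone names; and genes that overlap a member, matched by Ensembl identifier. Some genes that fall under this rule are not reported here. Gene positions are from GENCODE M21 and promoters from RefSeq, both mm10.

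Alternatives were DESeq2 1.42.0, voom in limma 3.58.1, RLE factors, library sizes that leave out the 50 most abundant genes, no count filter, a fit of only the 2 groups, a replicate block, a covariate (acinar, macrophage or stromal marker score), and each library left out. Limma on log2(TPM + 1) was added after seeing the data. For the replicate numbers, same-number libraries deviated together in all 3 pairs (correlation above 0.1) only between 5 and 3 DPA, at 0.156 to 0.326. No correlation was computed between libraries of different numbers, so these values cannot show that the numbers pair those groups. The labels state no pairing either.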

Additional observations from a re-analysis of the deposited data

Results flagged for a closer look

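The levels at 2 times after toxin differed, by edgeR's test of one time against the other, for 4 of the 10 genes. The CTRL labels give no day, and the part of the toxin in these differences was not tested. Over all genes 45.1% were called between 3 and 1 DPA and 56.1% between 5 and 1 DPA. Foxa2 was lower at 3 DPA than at 1 DPA by a log2 fold change of -0.74 and at 5 DPA by -0.95. Neurod1 was lower at 3 DPA than at 1 DPA by -0.55 and at 5 DPA by -0.84, and neither was called with the macrophage or stromal score as a covariate. Isl1 was higher at 3 DPA than at 1 DPA by 0.43. Mafa was lower at 5 DPA than at 1 DPA by -0.39, the only one of these differences whose libraries overlapped, and was called in 6 of 23 other settings.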

How the results depend on the processing

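Of 1380 member fold changes under other settings, 1256 kept their direction where called and their side of the threshold, 41 became called, 78 lost a call and 5 turned, a turn being counted only where the value was called in at least 1 of the 2 fits. The turns came with marker scores as covariates, which separate 1 DPA from the later times: with the macrophage score Rfx6 was 0.51 at 3 DPA against 1 DPA (adjusted p = 0.00881), and at 5 DPA against 1 DPA Mafa was 0.27 (0.453), Pax6 0.56 (0.0247) and Rfx6 0.74 (0.0124), while with the stromal score Pax6 was 0.40 (0.0470). The cause was not tested.

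For 3 DPA against CTRL, where 0 members were called, DESeq2 called 3, only the 2 groups compared 2, the macrophage score 2, and 1 each came from RLE factors, from library sizes that leave out the 50 most abundant genes and from no count filter. For 5 DPA against CTRL, where 3 were called, DESeq2 called 4, adding Mnx1 (adjusted p = 0.0426), those library sizes and no count filter gave 1 each, and only the 2 groups compared, the acinar, macrophage and stromal scores and the deposited TPM gave 0. On the deposited TPM the counts were 2 for 1 DPA against CTRL and 5 for 5 DPA against 1 DPA. With 1 library left out the counts ranged from 3 to 6 at 1 DPA, 0 to 2 at 3 DPA and 0 to 3 at 5 DPA against CTRL. They ranged from 3 to 3 for 3 against 1 DPA, 0 to 0 for 5 against 3 DPA, 2 to 5 for 5 against 1 DPA and 3 to 6 over the 4 groups. Leaving out CTRL replicate 3, or replicate 2 or 3 of 1 DPA, gave 3 at 1 DPA, and leaving out CTRL replicate 3 gave 5 for 5 against 1 DPA.

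With the replicate number as a block, 0 members were called at 5 DPA against CTRL, with adjusted p-values of 0.0615 for Pdx1, 0.0526 for Nkx6-1 and 0.0666 for Foxa2. The block also ended the calls of Nkx6-1 at 1 DPA against CTRL (0.0549) and of Mafa at 5 against 1 DPA (0.0737). For 5 against 3 DPA the block left the count at 0. Precision was limited by the spread of each gene. At 1 DPA the 95% interval of Rfx6 ran from -0.50 to 0.27, so a difference of Rfx6 anywhere within it was not excluded.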
